A study of Mus musculus with 6 samples.

Results

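Eomes and 8 further genes of cortical intermediate progenitors (Insm1, Btg2, Sstr2, Gadd45g, Mfng, Hes6, Rprm and Elavl2) were followed in RNA-seq of the embryonic mouse forebrain. The 9 genes were taken by name, after Ensembl identifiers without their version had been matched to mouse symbols. All 9 have a row among the 34866 of the count table, and all 9 are among the 15216 genes with enough counts to be tested. The 6 libraries come from forebrain at embryonic stage E14.5, and the series names the controls as littermates of the conditional knockouts, without saying which embryos share a litter; p-values therefore measure the spread between these 6 libraries. The 3 mutant-labelled libraries have the Sap130 genotype f/-, 1 floxed and 1 null allele, and the 3 controls have f/+, 1 floxed and 1 wild-type allele. All 6 carry Emx1-cre, whose Emx1 driver is active in the lineage of the dorsal telencephalon. The controls too can lose an allele there, and cells of the forebrain outside that lineage keep their floxed allele. By genotype those cells still carry the null allele in the mutant-labelled libraries and a wild-type allele in the controls. The groups therefore differ in genotype outside the dorsal lineage as well. Sample titles begin with SPF-539 (2 libraries, replicate 1 of each group) or SPF-552 (4 libraries), numbers that the sources used here do not explain.

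Intermediate progenitors arise from radial glia, the apical stem cells of the cortex, settle in the subventricular zone, and divide to give excitatory neurons. Eomes (also called Tbr2) is a T-box transcription factor that these cells switch on as they leave the radial glial state and switch off again in their neurons. Insm1, a zinc-finger repressor, promotes their formation. Eomes is largely confined to the dorsal lineage of the telencephalon, whereas Insm1, Btg2, Gadd45g and Hes6 are also found in neurogenic progenitors of the ganglionic eminences.

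The promoters of Eomes, Sstr2, Gadd45g and Hes6 are shown because these pairs of genes had different patterns in the mutant-labelled libraries, described further on. Each window runs from 250 bases before to 50 bases after the start of transcription in RefSeq (build GRCm38.p6) and is printed 5′ to 3′ on the strand of the gene, and capitals mark every CANNTG, the E-box letters that neurogenic bHLH factors can bind. Of the 9 genes 7 have a window in the RefSeq table; Insm1 and Mfng do not. For Hes6, which has windows at a pair of starts, the one at the 5′ end of the gene is given.
Eomes, chr9:118477939-118478238, plus strand: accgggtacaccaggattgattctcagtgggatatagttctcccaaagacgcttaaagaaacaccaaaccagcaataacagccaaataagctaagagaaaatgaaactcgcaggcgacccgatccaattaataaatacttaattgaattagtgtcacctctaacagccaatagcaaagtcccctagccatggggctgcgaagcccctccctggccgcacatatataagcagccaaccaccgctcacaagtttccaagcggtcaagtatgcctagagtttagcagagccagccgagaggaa
Sstr2, chr11:113619077-113619376, plus strand: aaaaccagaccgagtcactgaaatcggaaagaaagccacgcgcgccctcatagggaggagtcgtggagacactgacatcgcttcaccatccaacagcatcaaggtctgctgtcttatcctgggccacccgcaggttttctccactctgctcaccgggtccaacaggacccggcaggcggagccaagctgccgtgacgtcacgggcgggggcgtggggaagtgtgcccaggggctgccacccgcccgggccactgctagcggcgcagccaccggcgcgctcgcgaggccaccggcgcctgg
Gadd45g, chr13:51846425-51846724, plus strand: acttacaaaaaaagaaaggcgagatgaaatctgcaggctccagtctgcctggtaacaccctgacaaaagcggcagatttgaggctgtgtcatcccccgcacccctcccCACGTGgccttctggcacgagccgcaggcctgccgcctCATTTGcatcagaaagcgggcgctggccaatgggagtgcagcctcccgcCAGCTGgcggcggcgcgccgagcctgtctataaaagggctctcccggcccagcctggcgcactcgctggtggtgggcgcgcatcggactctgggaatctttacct
Hes6, chr1:91413989-91414288, minus strand: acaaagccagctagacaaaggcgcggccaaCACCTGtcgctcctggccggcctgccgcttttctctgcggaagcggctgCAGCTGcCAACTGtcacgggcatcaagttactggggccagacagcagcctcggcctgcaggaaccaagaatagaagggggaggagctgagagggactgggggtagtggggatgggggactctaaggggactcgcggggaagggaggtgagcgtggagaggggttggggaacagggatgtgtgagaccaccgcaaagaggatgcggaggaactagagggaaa
The windows of Eomes and Sstr2 hold 0 matches to CANNTG, and so do those of Btg2 and Rprm. Gadd45g holds 3, which are CACGTG beginning 142 bases before the start, CATTTG beginning 104 bases before it and CAGCTG beginning 55 bases before it. Hes6 also holds 3, CACCTG at 220 bases before the start, CAGCTG at 171 bases and CAACTG at 164 bases, and its other window holds 1. Each of the 6 windows of Elavl2 holds 1. The letters CANNTG read the same on the opposite strand, CAGCTG is 1 form of them, and a match was present in 72.3% of the 32851 windows of all genes, with 3 or more in 17.6%. The letters CAGATG or their complement, which Neurog2 and Neurod factors favour, were in 17.2% of all windows and in 0 of those of the 7 genes. The T-box letters AGGTGTG, on either strand, were in 5.8% of all windows and likewise in 0 of these. The Eomes window had 10 CpG dinucleotides and 47.3% G and C, against 14 to 27 and 62.0% to 66.3% in the other 3 printed.

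Total estimated counts per library were 20775583 to 25999874. Sap130 was examined as a check of the labels and stood at 82.8, 84.9 and 84.4 CPM (read counts scaled to a common total, with TMM-scaled library sizes) in controls 1 to 3, and at 137.7, 124.1 and 124.1 CPM in the mutant-labelled libraries. It rose (log2 fold change 0.61, edgeR adjusted p = 0.0116) where the genotype predicts less, so every direction here is that of the libraries as labelled. The counts cover the whole gene, and the sources used here do not name the floxed exons. Emx1, a homeobox factor of the dorsal telencephalon, had 44.9 to 64.7 CPM over the 6 libraries, so this marker of the labelled tissue was present. Mutant replicate 1 stood apart from the rest by the exon length of the genes that were low in it, as given below beside the results it touches.

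The comparison of the groups asked how these genes differ between the Sap130 genotypes f/- and f/+, both with Emx1-cre. Eomes was the 1 gene of the 9 that passed the test in the fit over all genes, and it fell. Insm1 and Sstr2 were lower in every mutant-labelled library than in every control, but did not pass in that fit; both passed with DESeq2, and also with the title number as a block. Btg2, Gadd45g, Mfng, Hes6 and Rprm were lower in mutant replicate 1 and close to the controls in mutant replicates 2 and 3. In these bulk samples, fewer cells of a type and less RNA per cell cannot be told apart.

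**Figure D1:**
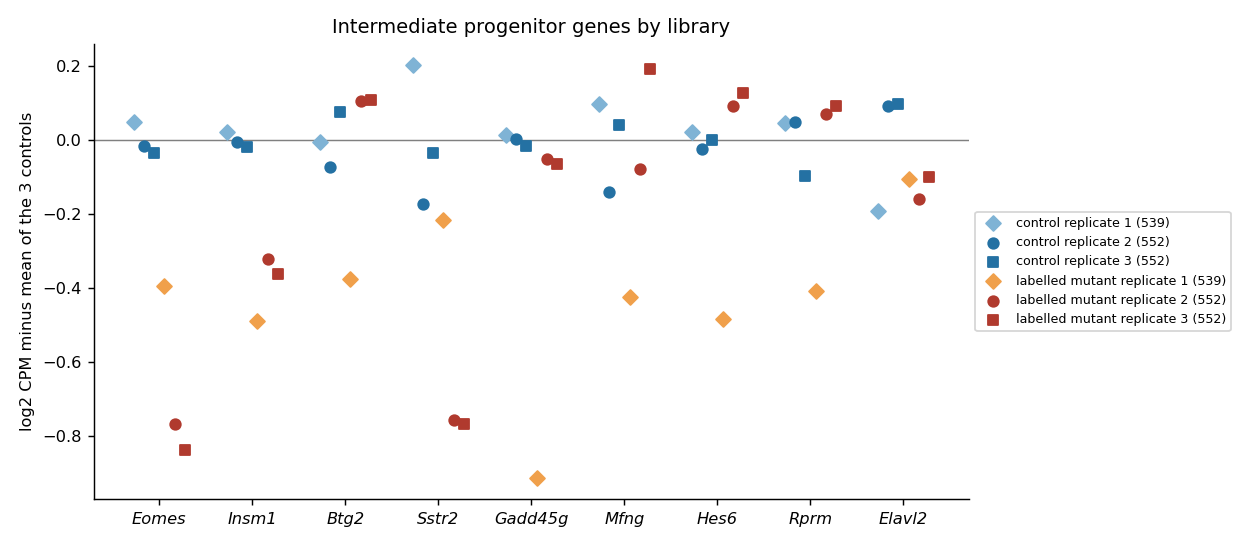
Each point is 1 library: log2 CPM of a gene minus its mean over the 3 controls. Diamonds mark the libraries with title number SPF-539 and circles and squares those with SPF-552. Eomes and Sstr2 were lowest in mutant replicates 2 and 3, Gadd45g, Hes6, Mfng, Rprm and Btg2 in mutant replicate 1.

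Eomes (ENSMUSG00000032446, GRCm38 chr9:118478212-118486132, plus strand) stood at 185.9, 177.8 and 175.6 CPM in controls 1 to 3, while mutant replicates 1 to 3 had 136.7, 105.5 and 100.6 CPM. The groups did not overlap, and mutant replicate 1 lay between the controls and the other 2 mutant-labelled libraries. The mean went from 179.8 ± 5.41 to 114.2 ± 19.6 CPM (SD, n = 3 each), or 36.5% lower. The quasi-likelihood test of edgeR put the log2 fold change at -0.65 (standard error 0.108, adjusted p = 0.0472 after Benjamini-Hochberg adjustment over all genes). At this threshold 0.138% of all tested genes were called, and 0.112% as lower. A two-sided exact permutation test gave 0.1, which is the smallest p that 3 libraries against 3 allow. Within title number SPF-539 the log2 difference was -0.44 (1 library against 1), and within SPF-552 it was -0.78 (2 against 2).

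The call of Eomes was close to its threshold. With RLE scaling in place of TMM the edgeR adjusted p was 0.0523, at the same log2 fold change of -0.65. Leaving out any single control, or mutant replicate 2 or 3, ended the call (adjusted p = 0.152 to 0.281 by the same test), whereas without mutant replicate 1 the adjusted p was 1.9e-05 and the log2 fold change -0.80, in a fit that called 2.14% of all genes. With the title number as a block the adjusted p of Eomes was 0.00384 in edgeR. The authors' deposited table, which holds a likelihood-ratio score and lists genes up to an FDR of 0.0994, gives Eomes a log2 fold change of -0.67 and an FDR of 5.64e-08. EdgeR's likelihood-ratio test on these counts gave Eomes an adjusted p of 5.9e-05. The exons of Eomes overlap those of 1 other annotated gene, the antisense transcript Gm33460 on the opposite strand, and its estimated counts of 2210 to 4506 per library cannot tell the strands apart, as the kit marks none.

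Insm1 (ENSMUSG00000068154, chr2:146221921-146225020, plus strand) had 158.9, 156.2 and 154.7 CPM in the controls and 111.7, 125.3 and 121.8 CPM in mutant replicates 1 to 3. All 3 mutant-labelled libraries lay below all controls, with mutant replicate 1 the lowest. The mean went from 156.6 ± 2.13 to 119.6 ± 7.09 CPM (SD, n = 3 each), 23.6% lower. The quasi-likelihood test of edgeR put the log2 fold change at -0.39 (standard error 0.0756, adjusted p = 0.0855), which does not pass. With the title number as a block it passed (adjusted p = 0.0282), and DESeq2 gave an adjusted p of 0.00219. The within-title differences were -0.51 in SPF-539 and -0.33 in SPF-552 on the log2 scale.

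Sstr2 (ENSMUSG00000047904, chr11:113619342-113626028, plus strand), a somatostatin receptor that couples to inhibitory G proteins, had 61.8, 47.6 and 52.4 CPM in controls 1 to 3 and 46.2, 31.7 and 31.5 CPM in mutant replicates 1 to 3. The groups did not overlap, but the highest mutant-labelled library lay only just below the lowest control. The means were 53.9 ± 7.22 and 36.5 ± 8.42 CPM (SD, n = 3 each). The quasi-likelihood test of edgeR put the log2 fold change at -0.56 (standard error 0.15, adjusted p = 0.204). With the title number as a block the standard error was 0.0853 and the adjusted p 0.0123. Within SPF-539 the log2 difference was -0.42 and within SPF-552 -0.66, and the 2 libraries with title number SPF-539 were the highest of their groups.

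With the title number as a block, Eomes, Insm1 and Sstr2 were the 3 genes of the 9 that passed, against 0.762% of all tested genes (0.513% lower). In title number SPF-552 alone, with 2 libraries against 2, these 3 and Elavl2 passed, against 3.70% of all genes tested there (2.15% lower). Their log2 fold changes in SPF-552 were -0.78 for Eomes, -0.33 for Insm1, -0.66 for Sstr2 and -0.22 for Elavl2. DESeq2 and edgeR's likelihood-ratio test also called Eomes, Insm1 and Sstr2, against 1.27% and 0.986% of all genes, and at an FDR of 0.1 the quasi-likelihood test called Eomes and Insm1, against 0.368%. Over all 6 libraries, 4 of the 9 genes (Eomes, Insm1, Sstr2 and Gadd45g) had every mutant-labelled library below every control, which held for 8.49% of all tested genes. The authors' deposited table lists 3 of the 9 genes, Eomes, Sstr2 (log2 fold change -0.57, FDR 6.83e-05) and Insm1 (-0.39, FDR 0.0041). In edgeR's likelihood-ratio test on these counts the adjusted p was 0.0495 for Sstr2 and 0.00693 for Insm1.

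**Figure D2:**
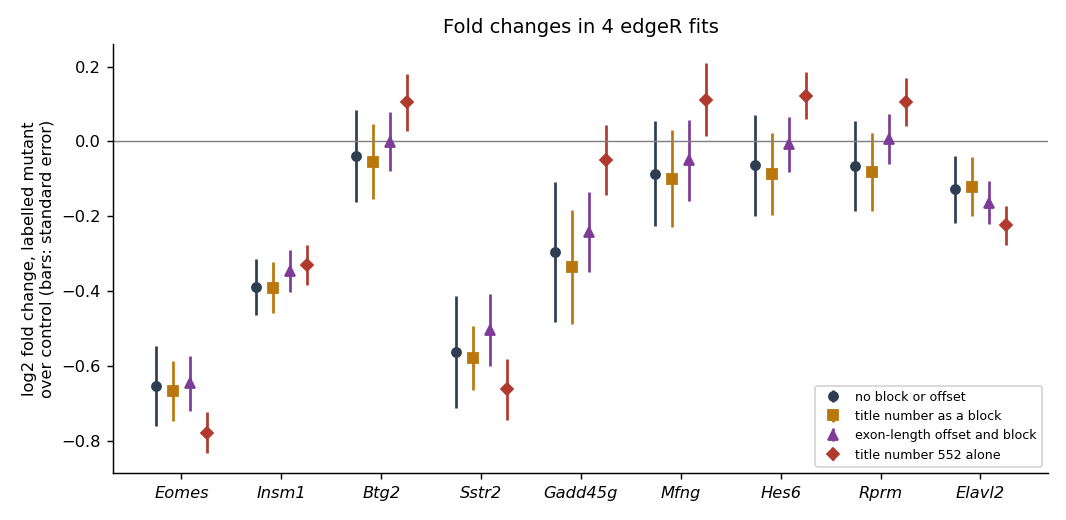
Log2 fold changes of the mutant-labelled libraries over controls, with standard errors, in 4 edgeR fits (no block or offset, title number as a block, exon-length offset with that block, and title number SPF-552 alone). Eomes, Insm1 and Sstr2 lie below 0 in all 4. Btg2, Mfng, Hes6 and Rprm lie above 0 in title number SPF-552 alone.

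Gadd45g (ENSMUSG00000021453, chr13:51846678-51848468, plus strand), a growth-arrest and stress-response gene induced as progenitors leave the cell cycle, had 27.1, 26.9 and 26.6 CPM in the controls and 14.2, 25.9 and 25.7 CPM in mutant replicates 1 to 3. It was far below the controls in mutant replicate 1 and just below the narrow range of the controls in the other 2. The quasi-likelihood test of edgeR put the log2 fold change at -0.29 (standard error 0.187, adjusted p = 0.675). Within SPF-539 the log2 difference was -0.93, and within SPF-552 it was -0.05.

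Hes6 (ENSMUSG00000067071, chr1:91411483-91414038, minus strand), a bHLH factor that counteracts the Notch effector Hes1, had 76.7, 74.2 and 75.6 CPM in the controls and 53.9, 80.5 and 82.5 CPM in mutant replicates 1 to 3. Mutant replicate 1 lay below the controls and the other 2 above them. Mfng (Manic fringe), a glycosyltransferase that modifies Notch receptors, had 42.6, 36.0 and 40.9 CPM in the controls and 29.6, 37.7 and 45.4 CPM in the mutant-labelled libraries. Here too only mutant replicate 1 was below the range of the controls. The adjusted p was 0.917 for Hes6 and 0.886 for Mfng by edgeR's quasi-likelihood test, at log2 fold changes of -0.06 and -0.09.

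Btg2, an antiproliferative gene switched on in progenitors before a neurogenic division, had 52.4, 49.98 and 55.4 CPM in the controls and 40.5, 56.6 and 56.7 CPM in mutant replicates 1 to 3. Rprm (Reprimo), a p53-inducible gene of cell-cycle arrest, had 96.0, 96.2 and 86.8 CPM in the controls and 70.1, 97.7 and 99.1 CPM in the mutant-labelled libraries. Both were lowest in mutant replicate 1 and highest in mutant replicates 2 and 3. Their adjusted p-values were 0.947 and 0.903 by edgeR's quasi-likelihood test, at log2 fold changes of -0.04 and -0.07.

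Elavl2, a neuronal RNA-binding protein of the Hu family, had 203.9, 248.0 and 248.9 CPM in controls 1 to 3 and 216.4, 208.2 and 217.0 CPM in mutant replicates 1 to 3. Control replicate 1 was the lowest of the 6 libraries, so the groups overlapped. The quasi-likelihood test of edgeR put the log2 fold change at -0.13 (standard error 0.0895, adjusted p = 0.709). The difference was 0.09 within SPF-539 and -0.23 within SPF-552 on the log2 scale, and in SPF-552 alone Elavl2 passed the test (adjusted p = 0.0278).

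The mutant-labelled libraries thus differed in which of the 9 genes were low. In log2 CPM minus the control mean, Eomes was at -0.40, -0.77 and -0.84 in mutant replicates 1 to 3, and Sstr2 at -0.22, -0.76 and -0.77. Gadd45g had the opposite order, with -0.91, -0.05 and -0.06. The ratio of Eomes to Insm1 was 0.09 above its control mean in mutant replicate 1 and 0.45 and 0.48 below it in the others on the log2 scale, where the controls lay between -0.02 and 0.03. The ratio of Eomes to Hes6 was 0.09 above its control mean in mutant replicate 1, and in mutant replicates 2 and 3 it dropped by 0.86 and 0.97. The ratio of Eomes to Sstr2 was at -0.18, -0.01 and -0.07 in mutant replicates 1 to 3, where the controls lay between -0.16 and 0.16. Exon length bears on these ratios in mutant replicate 1, as described next.

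**Figure D3:**
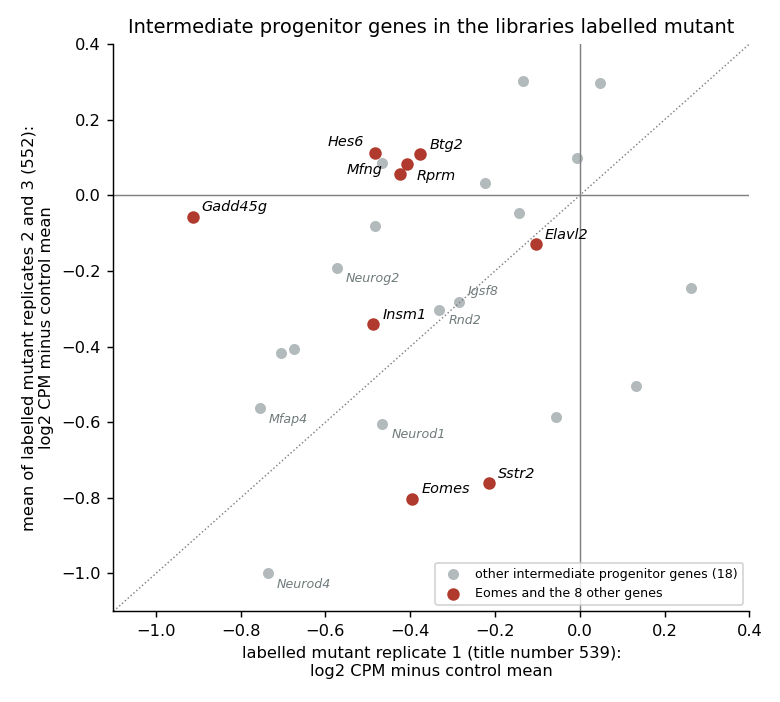
For each gene, log2 CPM minus the control mean in mutant replicate 1 (horizontal) is set against the mean of mutant replicates 2 and 3 (vertical), and the dotted line marks equal values. Red points are the 9 genes and grey points the 18 other progenitor genes. Eomes and Sstr2 lie below the line, Insm1 above but near it, and Gadd45g, Hes6, Mfng, Rprm and Btg2 far above it.

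Of the 9 genes 5 (Btg2, Gadd45g, Mfng, Hes6 and Rprm) were at least 0.3 below the control mean in mutant replicate 1 and within 0.2 of it in mutant replicates 2 and 3 on the log2 scale. These limits were set after the values were seen, and 6.82% of all tested genes met them. Exon length moved with this pattern. Over the 577 genes with at least 5 CPM and up to 1500 bases of exon, log2 CPM minus the control mean had a median of -0.33 in mutant replicate 1, and the median was 0.13 over the 4253 genes longer than 6000 bases. In the other 5 libraries the medians of all length classes lay between -0.03 and 0.06. The 5 genes have 1173 (Gadd45g), 1460 (Rprm), 1808 (Hes6), 2743 (Btg2) and 2839 (Mfng) bases of exon, all in the classes whose median was below 0 in that library, and so are Sstr2 with 2143 and Insm1 with 3100. Eomes has 4155 bases, in a class with a median of 0.01.

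**Figure D4:**
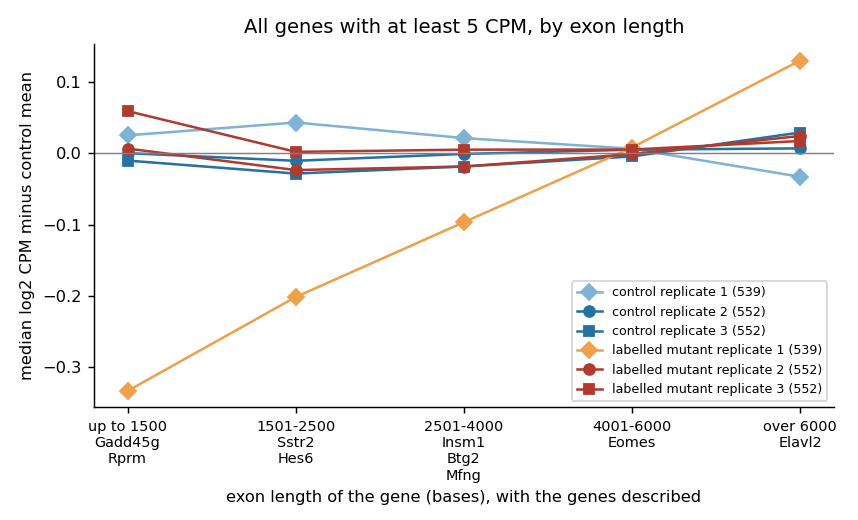
Median log2 CPM minus the control mean by exon length, in each library, over 11560 genes averaging 5 CPM or more. The line of mutant replicate 1 rises from -0.33 to 0.13 from the shortest to the longest class, and the other 5 libraries stay within 0.06 of 0.

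A per-library offset for exon length was therefore added after the data were examined. With it, mutant replicate 1 stood at -0.57 for Gadd45g, -0.30 for Mfng, -0.26 for Hes6, -0.24 for Btg2 and -0.13 for Rprm, on the scale of log2 CPM minus the control mean. All 5 were still its lowest value among the 6 libraries, and 1 of them, Gadd45g, still met the limits above, as did 4.44% of all tested genes. Sstr2 stood at -0.02 in mutant replicate 1 with the offset, inside the -0.16 to 0.17 of the controls, and at -0.74 and -0.76 in the others. In mutant replicate 1 the offset also changed the log2 ratios, that of Eomes to Hes6 turning from 0.09 to -0.10, that of Eomes to Sstr2 going from -0.18 to -0.33, outside the -0.13 to 0.15 of the controls, and that of Eomes to Insm1 from 0.09 to 0.02, inside the -0.03 to 0.04 of the controls. In mutant replicates 2 and 3 the ratio of Eomes to Hes6 was -0.86 and -0.95 with the offset. Eomes (-0.36, -0.76 and -0.83) and Insm1 (-0.38, -0.30 and -0.35) stayed below every control in all 3. With the offset Eomes and Insm1 passed the test (adjusted p = 0.0359 for both by edgeR's quasi-likelihood test, against 0.427% of all genes called) and Sstr2 did not (adjusted p = 0.456). With offset and title-number block together Eomes, Insm1 and Sstr2 passed (adjusted p = 0.000219, 0.00288 and 0.0103 in edgeR, against 2.69% of all genes called).

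As a group, all 9 genes had a log2 fold change below 0, with a median of -0.13, where the median over all tested genes was -0.0003. In the mutant-labelled libraries, log2 CPM minus the control mean had a median over the 9 genes of -0.41, -0.08 and -0.06 in replicates 1 to 3. Without mutant replicate 1 the median of the fold changes was -0.06, and 4 of the 9 (Btg2, Mfng, Hes6 and Rprm) had a fold change above 0.

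Levels of the 9 genes relative to each other were compared per kilobase of exon. In controls Rprm was highest at 63.7 ± 3.67 CPM per kilobase (SD, n = 3), followed by Insm1 at 50.5 ± 0.685, Eomes at 43.3 ± 1.30 and Hes6 at 41.8 ± 0.68. Elavl2 (28.1 ± 3.10), Sstr2 (25.2 ± 3.37), Gadd45g (22.9 ± 0.229), Btg2 (19.2 ± 0.982) and Mfng (14.0 ± 1.20) came next, all in CPM per kilobase. The control values of Eomes and Hes6, of Elavl2 and Sstr2, and of Sstr2 and Gadd45g overlapped, and those of the other neighbours in this order did not. In the mutant-labelled libraries Eomes was at 27.5 ± 4.71 CPM per kilobase and Hes6 at 40.0 ± 8.82 (SD, n = 3 each). In mutant replicates 2 and 3 the level of Eomes, 25.4 and 24.2 CPM per kilobase, was near the mean of Elavl2 in the same group, 25.7 ± 0.595 (SD, n = 3).

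**Figure D5:**
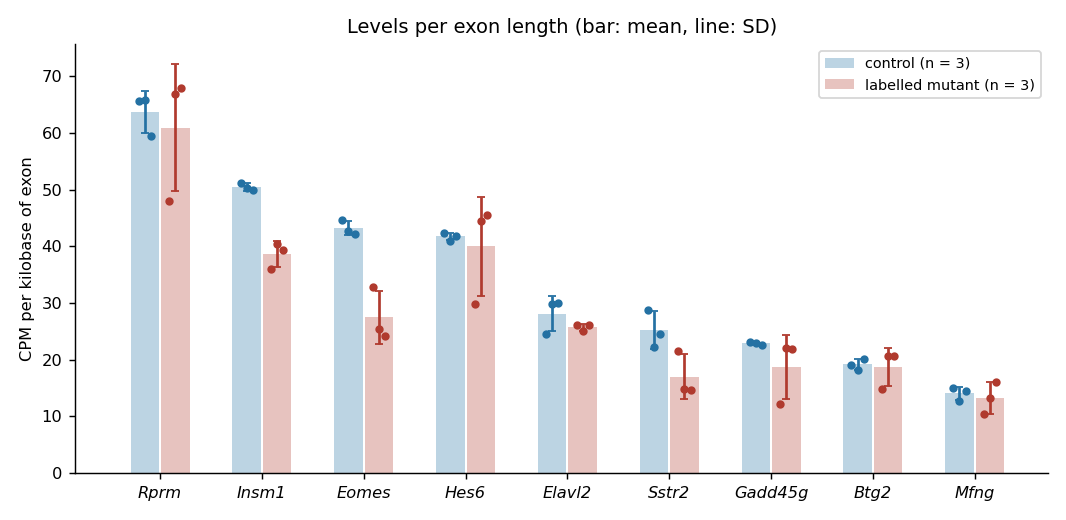
CPM per kilobase of exon in controls and in the mutant-labelled libraries. Bars give the mean, lines the SD and points the 3 libraries of each group. Eomes is the third highest of the 9 genes in controls, at 43.3, and averages 27.5 in the mutant-labelled libraries.

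Other genes of intermediate progenitors and of the step to neurons were read from a list of 18, all of them tested. Of these, 15 had a log2 fold change below 0 and 3 above, with a median of -0.27. By edgeR's quasi-likelihood test 0 passed, while 8 lower and 1 higher had an unadjusted p under 0.05, where 4.38% of all tested genes were lower at that level. DESeq2 called 4 as lower, against 1.27% of all genes called in either direction. With the title-number block 2 passed as lower, Neurod1 and Mfap4, against 0.513% of all tested genes. In sum the 18 genes stood at 1207.4 to 1220.1 CPM in controls and 1047.1 to 1070.5 CPM in the mutant-labelled libraries.

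Neurod1, a bHLH factor that follows Eomes as progenitors become neurons, had 49.0, 56.0 and 55.9 CPM in the controls and 38.7, 34.3 and 36.2 CPM in the mutant-labelled libraries. The groups were well apart, with a log2 fold change of -0.56 (standard error 0.0937, edgeR adjusted p = 0.0505). With the block the adjusted p of Neurod1 was 0.0184 in edgeR. Neurod4, a related bHLH factor, had 7.25 ± 0.642 CPM in controls and 3.87 ± 0.831 CPM in the mutant-labelled libraries (SD, n = 3 each; log2 fold change -0.90, adjusted p = 0.129 by the same test). Mfap4, a microfibril-associated glycoprotein, went from 36.1 ± 4.24 to 23.3 ± 1.99 CPM (-0.63, adjusted p = 0.0684).

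Neurog2, the proneural bHLH factor upstream of Eomes, had 147.1, 133.0 and 137.1 CPM in the controls and 93.3, 124.0 and 119.2 CPM in the mutant-labelled libraries. All 3 lay below the controls, mutant replicate 1 most, as with Insm1, and the adjusted p was 0.342 by edgeR's quasi-likelihood test. Rnd2, a small GTPase gene that Neurog2 activates in migrating neurons, had a log2 fold change of -0.31 and Igsf8, an immunoglobulin-superfamily membrane protein, -0.29 (adjusted p = 0.17 and 0.204). Both stood at nearly the same level in the 3 mutant-labelled libraries, 131.8 to 141.1 CPM for Rnd2 and 105.2 to 107.7 CPM for Igsf8. With the exon-length offset Rnd2 was at -0.12, -0.33 and -0.25 in log2 CPM minus the control mean. A further 3 genes of the list were singled out after their values were seen, for their order over these libraries. Unc5d, a netrin receptor of multipolar neurons, stood at -0.06, -0.46 and -0.71 in mutant replicates 1 to 3 in log2 CPM minus the control mean, and Lzts1 at 0.13, -0.52 and -0.49. Dll3, a Notch ligand family member, had the order of Hes6, at -0.47, 0.05 and 0.12. With the exon-length offset mutant replicate 1 stood at -0.18 for Unc5d, 0.06 for Lzts1 and -0.34 for Dll3.

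Relatives of the 9 genes in their families were read from a list of 25, of which 23 were tested (Tbx20 and Sstr5 were not). Their median log2 fold change was -0.05, and 0 passed by edgeR's quasi-likelihood test or by DESeq2. At an unadjusted p under 0.05, 2 were lower and 0 higher, where 4.38% of all tested genes were lower and 5.22% higher. These 2 were Sstr3, another somatostatin receptor, at 8.50, 8.16 and 7.98 CPM in controls and 6.50, 4.25 and 3.76 CPM in the mutant-labelled libraries (adjusted p = 0.216), and Tbr1, the T-box factor of deep-layer neurons that follows Eomes in the lineage. Tbr1 had 280.5 ± 7.82 CPM in controls and 231.9 ± 17.3 CPM in the mutant-labelled libraries (SD, n = 3 each; log2 fold change -0.27, adjusted p = 0.261 by edgeR). Next by p were Rprml (-0.57), Hes5 (0.24), Gadd45b (-0.50) and Sstr4 (0.53), with adjusted p-values of 0.687 to 0.725 by the same test. Hes5, a Notch effector of radial glia, had 24.1 to 24.9 CPM in the controls and stood at -0.24, 0.50 and 0.37 in mutant replicates 1 to 3 in log2 CPM minus the control mean, with mutant replicate 1 below the controls and the others above. With the exon-length offset mutant replicate 1 turned to 0.06, above the controls, for Hes5, which has 1363 bases of exon.

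The cells before and after the intermediate progenitor were read from marker lists. Of 17 radial glia markers 0 passed by edgeR's quasi-likelihood test or DESeq2, 3 were higher at an unadjusted p under 0.05 (5.22% of all tested genes were higher at that level), and the median log2 fold change was 0.14. Nes, the intermediate filament gene of neural stem cells, had 536.1 ± 42.0 and 660.8 ± 61.8 CPM (SD, n = 3 each), Notch1 198.6 ± 19.3 and 233.7 ± 11.8, and Pax6 75.3 ± 6.88 and 87.7 ± 5.30 in controls and mutant-labelled libraries (edgeR adjusted p = 0.299, 0.404 and 0.456). Their log2 fold changes were 0.30, 0.23 and 0.22, and with the exon-length offset 0.28, 0.15 and 0.15. In mutant replicate 1 the offset put Notch1 at 0.03 and Pax6 at -0.06 in log2 CPM minus the control mean. Both values lay inside the range of the controls, while Nes at 0.34 lay above it. Of 13 markers of postmitotic excitatory neurons 12 had a log2 fold change below 0 and 1 above, with a median of -0.30. At an unadjusted p under 0.05 by edgeR, 7 were lower, where 4.38% of all tested genes were. DESeq2 called 6 as lower, against 1.27% of all genes called in either direction. By edgeR's quasi-likelihood test 3 passed as lower, against 0.112% of all tested genes. Among the 3 were the bHLH factors Neurod6 (-0.90) and Neurod2 (-0.75), with edgeR adjusted p-values of 0.003 and 0.0116. Neurod6 had 286.1, 286.0 and 288.9 CPM in controls. It had 173.3, 152.0 and 135.4 CPM in the mutant-labelled libraries, highest in mutant replicate 1 as with Eomes. The 10 pan-neuronal markers had a median log2 fold change of -0.04, with 3 above and 7 below 0. By edgeR's quasi-likelihood test or DESeq2, 0 of them passed. Of 16 proliferation markers 0 passed by edgeR's quasi-likelihood test or DESeq2, with 2 higher at an unadjusted p under 0.05, against the same 5.22% of all genes, and a median of 0.08. Mki67 (0.40), Ccne1 (0.43) and Mcm5 (0.17) were first by p, with adjusted p-values of 0.31, 0.379 and 0.618.

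Markers of the ganglionic eminence, the diencephalon and Cajal-Retzius cells had fold changes mostly above 0. All 15 markers of the ganglionic eminence had a log2 fold change above 0, with a median of 0.26 and a summed level of 1035.7 to 1187.6 CPM in controls against 1255.1 to 1449.6 CPM in the mutant-labelled libraries. By edgeR's quasi-likelihood test 0 passed, with 9 higher at an unadjusted p under 0.05 (all genes 5.22%). DESeq2 called 1, against 1.27% of all genes called in either direction. The zinc-finger factors Sp8 and Sp9 were among the first by p, both with a log2 fold change of 0.35 (edgeR adjusted p = 0.225 and 0.272). The 13 diencephalon markers summed to 436.9 to 471.5 CPM in controls and 514.2 to 638.0 CPM in the mutant-labelled libraries. For the 8 Cajal-Retzius markers these sums were 401.0 to 409.7 and 452.5 to 607.7 CPM. In either list 0 were called by edgeR, and 7 and 5 were higher at an unadjusted p under 0.05 (all genes 5.22%). DESeq2 called 2 in each list, against the same 1.27% of all genes. The part of these marker levels in the values of Eomes, Insm1 and the other 7 genes was not tested. Markers of microglia, endothelium, meninges, choroid plexus and red blood cells had medians of 0.01, 0.03, 0.01, -0.08 and -0.13, with overlapping summed levels in both groups, 0 called by edgeR or DESeq2 and 0 at an unadjusted p under 0.05. None of the markers in any list was at 0 in all libraries.

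The genes most like Eomes over the 6 libraries were found among 11579 others that averaged 5 CPM or more, by the root mean square difference between their log2 CPM minus the control mean and that of Eomes. The nearest 5 were Fam49a (0.062), Hs3st1 (0.063), Cntn2 (0.067), Nfatc4 (0.072) and Rbm24 (0.073), all differences in log2 units over 6 libraries. Cntn2, an axonal adhesion molecule of the contactin family, stood at -0.29, -0.82 and -0.95 in mutant replicates 1 to 3, and Fam49a at -0.30, -0.71 and -0.78. Likeness was computed without the exon-length offset. With it, mutant replicate 1 stood at -0.49 for Fam49a and -0.42 for Cntn2, against -0.36 for Eomes. Hs3st1 was then at -0.33, Nfatc4 at -0.56 and Rbm24 at -0.39 in that library. Hs3st1 encodes a heparan sulfate sulfotransferase, Nfatc4 a calcium-responsive transcription factor and Rbm24 an RNA-binding protein. None of the other 8 genes was among these 5.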

How the data were processed

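Forebrain RNA was sequenced after library preparation with the TruSeq RNA v2 kit, which does not mark strand, according to the labels' protocols. The genome build mm10 (GRCm38), edgeR 3.4.2, HTSeq 0.5.4p5 and TopHat2 2.0.9 appear in the submitters' processing notes, with no role given. The count table deposited by the authors holds estimated counts per gene, not scaled between libraries; in each library 22.7% to 24.9% of the values are not whole, and the sources used here do not name the tool behind them. Per the file headers, the authors' second table holds log2 fold changes, a likelihood-ratio score, p-values and FDR. Symbols and exon lengths came from GENCODE M21 (99.19% of rows matched). Counts were rounded and tested in R 4.3.3 with edgeR 4.0.16 (filterByExpr with a minimum count of 10 and total of 15, TMM, robust quasi-likelihood fit), with Benjamini-Hochberg adjustment over all genes at an FDR of 0.05, and with DESeq2 1.42.0 as an alternative. Log2 CPM used a prior count of 2. The exon-length offset is a loess fit (span 0.5) in each library. The biological coefficient of variation came to 12.3% and the standard errors of log2 fold changes to 0.125 in the median, which sets the precision. Standard errors given for the quasi-likelihood fits were derived from the test. Each is the absolute log2 fold change divided by the square root of the F statistic. Replicate pairs of a group differed beyond sampling noise (chi-square of 4.81 or more per gene). Replicates were numbered in accession order, which pairs no samples.

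Named were all 9 genes, Sap130 as a check of the labels, called genes and up to 6 by p in the progenitor and family lists and up to 3 in the main marker lists, and the 5 genes most like Eomes. Emx1 and Gm33460 were added after their values were seen. Some genes that the rule names are not reported here. The 9 genes and all lists were chosen with earlier results of these data known. Alternatives were scaling, filters, other tests, each library left out in turn, SPF-552 by itself and the title number as a block. The exon-length offset, alone and with the block, was added with the values in view. Scripts were tested on simulated data. Figures were drawn with matplotlib 3.10.9.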

Additional observations from a re-analysis of the deposited data

Results flagged for a closer look

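For 4 genes the difference between mutant-labelled and control libraries had opposite signs in the 2 title numbers, with no overlap between the groups in SPF-552. In SPF-539, with 1 library of each group, overlap was not possible. The share of all tested genes that meet this rule is not given here, so the count is a description only. For Btg2 it was -0.37 in SPF-539 and 0.11 in SPF-552 in log2 CPM. For Hes6 it was -0.51 and 0.12, and for Rprm -0.45 and 0.11. For Elavl2 it was 0.086 in SPF-539 and -0.23 in SPF-552. These values are without the exon-length offset. With it, Elavl2 stood at -0.16 in control replicate 1 and -0.21 in mutant replicate 1, so its sign in SPF-539 turned. Rprm stood at 0.02 and -0.13 in the same libraries, a smaller difference. Btg2 (-0.04 and -0.24) and Hes6 (-0.02 and -0.26) also stayed lower in mutant replicate 1. Mfng also had opposite signs, -0.52 and 0.11, but its groups overlapped in SPF-552. These differences between title numbers were not tested, since SPF-539 holds 1 library of each group, and mutant replicate 1 cannot be told apart from its title number.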

How the results depend on the processing

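Over all genes, 21 passed. The count was 130 without a filter on low counts, 194 with DESeq2, 150 with edgeR's likelihood-ratio test, 116 with the title number as block, 564 in SPF-552 alone, 56 at an FDR of 0.1, 65 with the exon-length offset and 409 with offset and block. Leaving out 1 library gave 3 to 330, the highest without mutant replicate 1. Of the 9 genes 1 passed. The count was 0 with RLE scaling, 2 without a filter, at an FDR of 0.1 or with the offset, 3 with DESeq2, the likelihood-ratio test, the block, or offset and block, and 4 in SPF-552 alone; it was 0 to 3 on leaving out 1 library. Of the 18 other progenitor genes 0 passed by edgeR's quasi-likelihood test; the count was 1 with library totals alone, the stricter filter or the offset, 2 with the block or at an FDR of 0.1, 3 without a filter or with the likelihood-ratio test, 4 with DESeq2, 6 with offset and block, 8 in SPF-552 alone, and 0 to 7 on leaving out 1 library. The log2 fold change of Eomes kept its direction in every fit run, at -0.80 to -0.57 on leaving out 1 library, and was -0.65 with RLE scaling. The median over the 9 genes was -0.25 to -0.06 on leaving out 1 library.

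Some fold changes turned positive. In SPF-552 alone they were 0.10 for Btg2, 0.11 for Mfng, 0.12 for Hes6 and 0.11 for Rprm, and without mutant replicate 1 they were 0.11, 0.060, 0.11 and 0.081; leaving out each library in turn gave -0.12 to 0.11 for Btg2, -0.25 to 0.060 for Mfng, -0.17 to 0.11 for Hes6 and -0.15 to 0.081 for Rprm. With the exon-length offset they were 0.0078 for Btg2, 0.0021 for Hes6 and 0.0102 for Rprm, and with offset and block 0.0076 for Rprm. None of these 4 genes passed in any of these fits. The cause was not tested. No paired analysis was possible because the labels give no replicate numbers shared by the groups; the title-number block stands in the report. The 3 libraries of each group limit what can be called, and a p that misses the threshold does not show that values are alike.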
